A study of Mus musculus with 46 samples.

Results

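The genes studied are 9 members of activin, bone morphogenetic protein (BMP) and Gdf15 signalling, followed through AB1-HA mesothelioma tumors of mice treated with cyclophosphamide (CY). The 9 genes were taken by name from the table of gene counts, which holds 46011 complete entries: the ligands Inhba, Inhbb, Bmp2, Bmp4 and Gdf15, the secreted antagonists Fst and Fstl3, and the receptors Acvr1 and Acvr2a. AB1-HA is a mesothelioma cell line of BALB/c origin that carries influenza hemagglutinin, so tumor cells and host cells contribute to each sample. Male BALB/c mice aged 8 to 10 weeks bore a subcutaneous AB1-HA tumor on each flank and all received 200 mg/kg CY on day 10. One tumor per mouse was excised for bulk RNA sequencing and the tumor left in place gave the response, either complete (CR) or recorded as PR, which the sample labels spell out as partial response and the methods of the study as progression. Tumors were taken on day 9, the day before CY (13 CR and 13 PR, CY not yet given), on day 13, 3 days after CY (5 CR and 5 PR), or on day 17, 7 days after CY (5 CR and 5 PR). No group left without CY was followed to days 13 and 17, so time after CY and age of the tumor cannot be told apart.

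Activins are dimers of inhibin beta subunits, encoded among others by Inhba and Inhbb. They bind a type II receptor such as Acvr2a, which then activates a type I receptor and SMAD proteins in the cell. Bmp2 and Bmp4 act through related receptors, among them Acvr1, and induce the Id genes. Follistatin, from Fst, and the follistatin-like protein from Fstl3 bind activins outside the cell and block them. Gdf15 is a distant relative of the family that is induced by many kinds of cell stress and signals through Gfral in the hindbrain. High activin A has been described in mesothelioma.

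The samples differed in ways that touch these genes. Counts summed to 10227681 to 14218987 per tumor before CY, 15412744 to 18748688 at day 3 and 16047930 to 19446596 at day 7, so depth also went with time. All levels are therefore given as CPM, the counts scaled to a common total with TMM library sizes. Krt5, a keratin of skin, was above 10 CPM in 10 of 26 tumors before CY, 1 of 10 at day 3 and 5 of 10 at day 7, and results that changed without these 16 tumors are marked. Of 6 mesothelial markers, Msln averaged 385, 352 and 65.9 CPM at days -1, 3 and 7 and Krt8 averaged 12.3, 28.9 and 0.917 CPM, while Krt18 (0.19 CPM before CY), Krt19 (0.244), Lrrn4 (0.495) and Muc16 (0.00923) were near 0 from the start. Krt8 was higher at day 3 than at day -1 (log2 fold change 1.26, adjusted p = 0.000764), and Msln was not called (-0.12, adjusted p = 0.265). In bulk RNA, fewer cells of a type and less RNA per cell cannot be told apart.

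The 250 bases before a RefSeq transcript start (build GRCm38.p6) were found for 7 of the 9 genes. There were 8 entries in all, because Gdf15 had 2 starts. The 4 printed here run 5′ to 3′ on the strand of the gene: Inhba and Inhbb, whose RNA moved in opposite directions after CY, Fstl3, which was lower at both times, and Gdf15, which was high at day 3. Capitals mark a TATA box (TATAAA) or a SMAD element (GTCTG) on either strand.
Inhba, chr13:16011601-16011850, plus strand: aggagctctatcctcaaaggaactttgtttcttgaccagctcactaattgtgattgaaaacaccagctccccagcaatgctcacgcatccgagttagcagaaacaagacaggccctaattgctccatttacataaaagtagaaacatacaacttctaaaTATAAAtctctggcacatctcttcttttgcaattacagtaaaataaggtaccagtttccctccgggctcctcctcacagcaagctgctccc
Inhbb, chr1:119422249-119422498, minus strand: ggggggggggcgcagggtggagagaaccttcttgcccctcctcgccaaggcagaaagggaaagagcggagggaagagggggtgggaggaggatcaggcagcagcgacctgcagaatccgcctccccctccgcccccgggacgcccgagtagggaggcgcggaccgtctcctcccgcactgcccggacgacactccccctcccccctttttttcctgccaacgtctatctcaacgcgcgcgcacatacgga
Fstl3, chr10:79777024-79777273, plus strand: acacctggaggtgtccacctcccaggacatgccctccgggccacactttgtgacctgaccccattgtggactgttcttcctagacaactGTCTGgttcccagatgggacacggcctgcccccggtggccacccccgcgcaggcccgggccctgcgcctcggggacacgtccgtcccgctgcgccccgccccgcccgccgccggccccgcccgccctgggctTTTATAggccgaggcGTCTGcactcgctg
Gdf15, chr8:70632457-70632706, minus strand: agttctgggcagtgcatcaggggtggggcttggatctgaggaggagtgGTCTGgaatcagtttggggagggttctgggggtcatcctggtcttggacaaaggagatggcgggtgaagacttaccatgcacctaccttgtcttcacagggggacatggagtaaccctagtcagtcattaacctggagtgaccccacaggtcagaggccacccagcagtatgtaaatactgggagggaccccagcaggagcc

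The Inhba window was 43.2% G and C and held TATAAA, counted 91 to 86 bases before the start. The start used for Inhba lies inside the annotated gene, which opens further upstream. The Inhbb window was 68% G and C and held neither capital motif. In Fstl3, TATAAA lay on the opposite strand at 29 to 24 bases before the start, and GTCTG occurred at 161 and 14 bases before it. TATAAA was found in 2 of the 8 entries, against 12.4% of 32851 mouse windows of the same length, and GTCTG in 4 of 8, against 42.2%. The cyclic AMP element TGACGTCA (1.55% of all windows), the AP-1 site TGANTCA (6.75%), the amino acid response element TGATGNAAN (3.44%) and the GC element GGCGCC (9.59%) were in 0 of the 8. GGGCGG was in 5 of 8 (32.7% of all), CANNTG in 3 of 8 (66.2%) and GGAA in 8 of 8 (93.4%). All motifs were searched on both strands and may overlap one another. These matches describe the letters of the windows and say nothing of binding.

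The question of the time comparisons was how the genes stood 3 and 7 days after CY relative to tumors taken before it. Inhba fell at each step, Inhbb rose at each step, Bmp2 was higher at both times, Bmp4 was higher at day 7 alone and Gdf15 was high at day 3. Both activin antagonists were lower after CY, and the receptors were lower at day 7. At a false discovery rate (FDR) under 0.1 in edgeR's quasi-likelihood test, 3 members were higher and 4 lower at day 3 than at day -1, where 37.9% of the 13194 genes tested were higher and 39.6% lower. At day 7, 4 members were higher and 5 lower than at day -1, against 43% and 42.8% of all genes. Relative to day 3, day 7 had 4 members higher and 4 lower, against 38.8% and 36.5%. Most of the genes tested changed with time, so the number of members called is near the background. Where tumors of different times are said below not to overlap, the share of all genes without overlap was not counted.

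With a change of at least 2-fold also required, 1 member was higher and 2 lower at day 3 (8.97% and 9.25% of all genes), 2 higher and 2 lower at day 7 (21.4% and 17.2%), and 1 higher and 2 lower at day 7 relative to day 3 (16.7% and 11.7%). The median absolute log2 fold change of the 9 genes was 0.78 at day 3, 0.87 at day 7 and 0.84 between days 3 and 7. Over all genes tested it was 0.47, 0.76 and 0.53. The changes were large for some members and small for others, as the plot of the 9 genes by tumor shows.

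**Figure D1:**
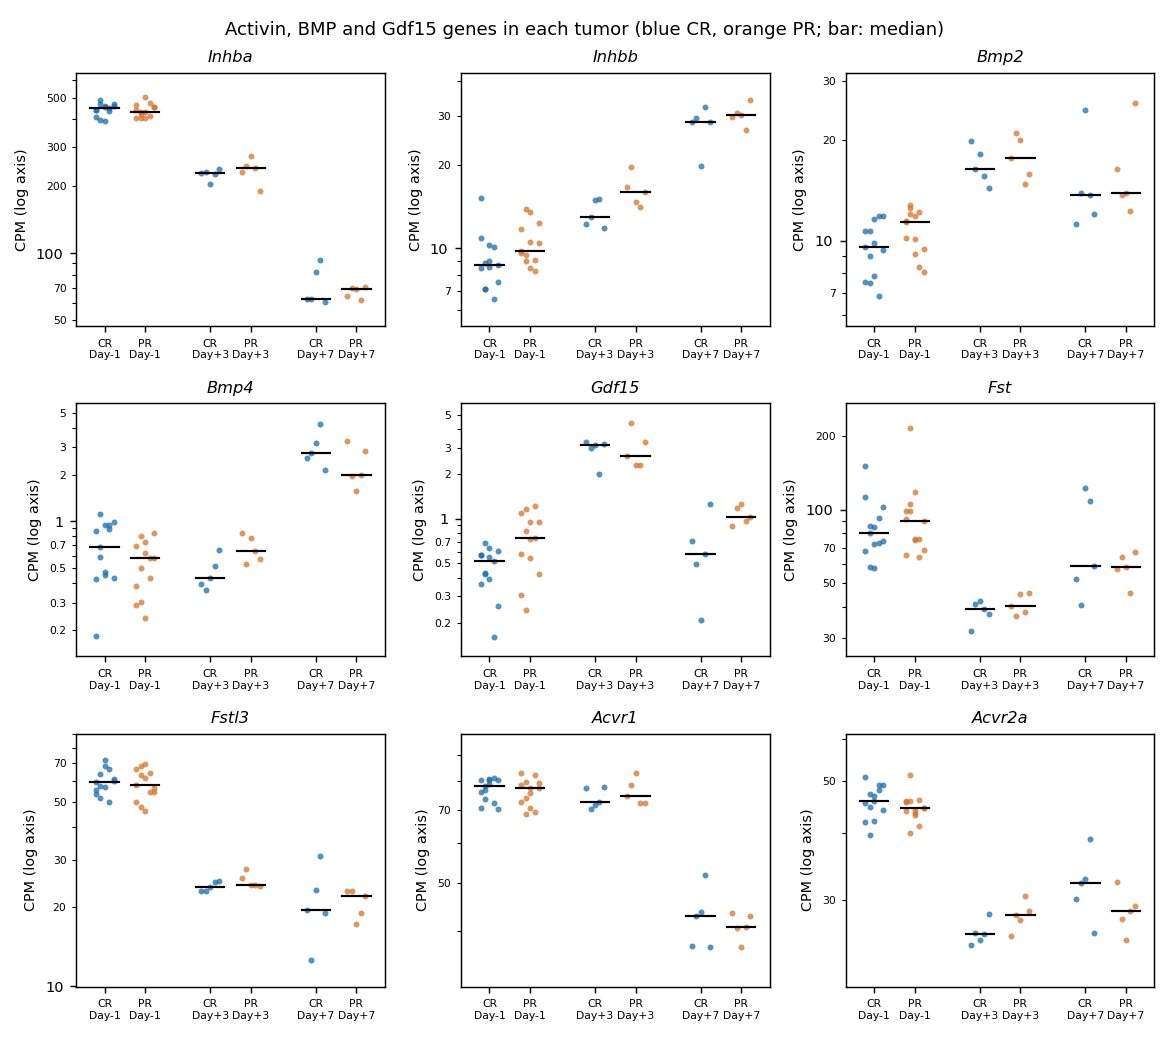
CPM (log axis) of the 9 genes in each of the 46 tumors, with CR tumors in blue, PR tumors in orange and a bar at the median of each group. Inhba has medians of 438, 232 and 66.4 CPM at days -1, 3 and 7 with no overlap between times, Gdf15 peaks at day 3 and Bmp4 at day 7, and CR and PR overlap in every panel.

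Inhba, on chr13:16004256-16031609, encodes the beta A subunit of activin A. It ranged from 391 to 503 CPM before CY (median 438, 26 tumors), from 191 to 273 CPM at day 3 (median 232, 10 tumors) and from 60.1 to 92.9 CPM at day 7 (median 66.4, 10 tumors). Every tumor of a later time lay below every tumor of an earlier one. The spread within a time was small beside these steps: the SD was 28.7, 22.3 and 10.5 CPM around means of 440, 231 and 69.4 CPM. Inhba had a log2 fold change of -0.93 ± 0.0525 (SE) at day 3 (adjusted p = 2.56e-20) and -2.67 ± 0.059 at day 7 (adjusted p = 1.48e-35), which is 6.34-fold lower. Of all genes tested, 7.26% had a larger absolute change at day 7. The fall was of like size in CR tumors (-2.62 ± 0.0831) and PR tumors (-2.71 ± 0.0837).

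Inhbb, on chr1:119415463-119422248, encodes the beta B subunit. Its levels ran the other way, with 6.54 to 15.2 CPM before CY (median 9.26), 11.8 to 19.6 CPM at day 3 (median 14.8) and 19.7 to 34.2 CPM at day 7 (median 29.6). Tumors of day 7 all lay above those of both earlier times, while days 3 and -1 overlapped. Inhbb was 0.59 ± 0.0905 higher at day 3 and 1.57 ± 0.087 higher at day 7 than at day -1 on the log2 scale (adjusted p = 1.64e-07 and 4.52e-21). Its level at day 7 was 2.96-fold that at day -1. Inhba and Inhbb thus differed in opposite directions between the times. Each tumor was sampled once, so these are differences between groups of tumors.

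Bmp2, on chr2:133552159-133562896, encodes a BMP ligand best known for bone formation. It had 6.85 to 12.8 CPM before CY (median 10.2), 14.4 to 21 CPM at day 3 (median 17) and 11.2 to 25.7 CPM at day 7 (median 13.8). The 10 tumors of day 3 lay above all 26 of day -1, and those of day 7 overlapped both. Bmp2 had a log2 fold change of 0.78 ± 0.103 at day 3 (adjusted p = 5.65e-09) and 0.63 ± 0.104 at day 7 (adjusted p = 4.49e-07) relative to day -1. Day 7 differed from day 3 by -0.14 ± 0.126 (adjusted p = 0.308), and 2 tumors of day 7 stood high, with 24.5 CPM (CR replicate 3) and 25.7 CPM (PR replicate 5). Leaving out either one put Bmp2 below its day 3 level (-0.29, adjusted p = 0.0233 and 0.0257).

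Bmp4, on chr14:46383525-46390669, encodes a close relative of Bmp2. It was rare, with 2 to 13 counts per tumor before CY, 6 to 16 at day 3 and 25 to 74 at day 7. In CPM the ranges were 0.182 to 1.12 (median 0.587), 0.359 to 0.838 (median 0.552) and 1.57 to 4.26 (median 2.65). All 10 tumors of day 7 lay above the other 36. Bmp4 was 2.09 ± 0.162 higher at day 7 than at day -1 on the log2 scale (adjusted p = 4.81e-16), and at day 3 it differed by -0.12 ± 0.193 (adjusted p = 0.583). An exon of Bmp4 overlaps the gene Gm15217 on the other strand, and reads of the pair cannot be told apart where the strand was not kept.

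Gdf15, on chr8:70629393-70632470, was also rare except at day 3. It had 2 to 14 counts before CY, 35 to 83 at day 3 and 3 to 20 at day 7. The CPM ranges were 0.161 to 1.21 (median 0.571), 2.01 to 4.39 (median 3.05) and 0.209 to 1.26 (median 0.931). Every tumor of day 3 lay above every other tumor, while days 7 and -1 overlapped. Gdf15 had a log2 fold change of 2.29 ± 0.17 at day 3 (adjusted p = 2.35e-16), which is 4.9-fold, and 2.95% of genes changed more. At day 7 Gdf15 was 0.47 ± 0.2 above day -1 (adjusted p = 0.0253). That small difference was not called without CR replicate 5 of day 7 (0.30, adjusted p = 0.166) or with skin and muscle scores as covariates (0.37, adjusted p = 0.147).

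Genes known to be induced with Gdf15 were set beside it. The summed level of 10 target genes of p53, the factor activated by DNA damage, was 1010 to 1390 CPM before CY (median 1150), 2640 to 3100 CPM at day 3 (median 2880) and 1590 to 1970 CPM at day 7 (median 1750). All 10 were higher at day 3 than at day -1, and 8 of 10 were lower at day 7 than at day 3. The summed level of 9 genes of the integrated stress response, another known inducer of Gdf15, had medians of 775, 757 and 1100 CPM. At day 3, 6 of these 9 were higher and 3 lower than at day -1. Whether either response had a part in the Gdf15 level was not tested.

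**Figure D2:**
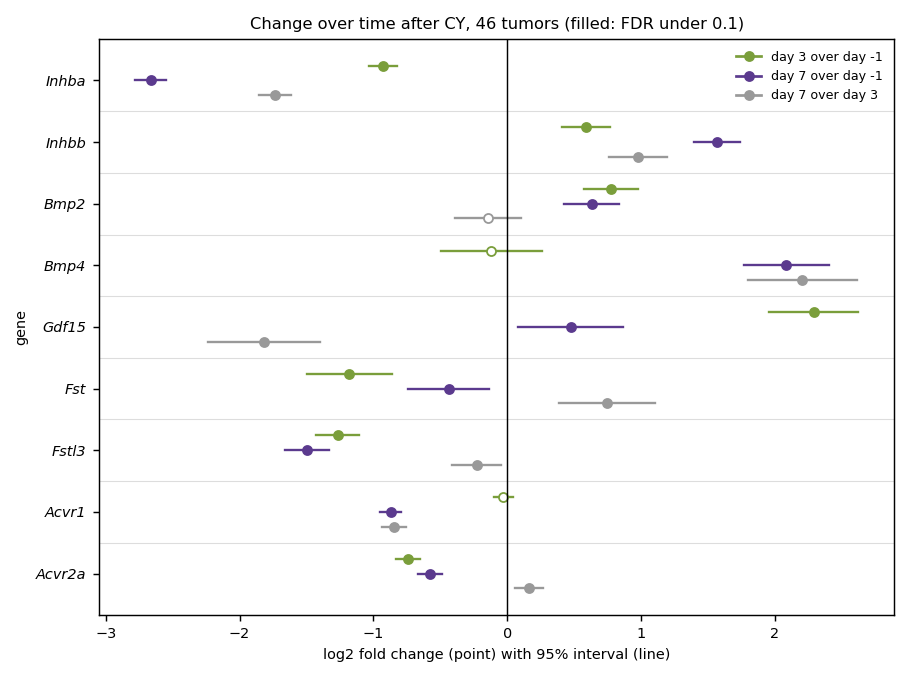
Log2 fold changes of the 9 genes in 46 tumors, with 95% intervals from the SE, for day 3 over day -1 (green), day 7 over day -1 (purple) and day 7 over day 3 (grey), filled where the FDR was under 0.1. Inhba has the lowest value (-2.67 at day 7) and Gdf15 the highest (2.29 at day 3), and Bmp4 and Acvr1 have open points at day 3.

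Fst, on chr13:114452262-114458989, encodes follistatin, which binds activins with high affinity. It ranged widely before CY, from 58 to 214 CPM (median 82.5), and was at 31.9 to 45.7 CPM at day 3 (median 40) and 41 to 122 CPM at day 7 (median 58.7). All tumors of day 3 lay below all tumors of day -1, and day 7 overlapped both. Fst had log2 fold changes of -1.18 ± 0.162 at day 3 (adjusted p = 1.32e-08), -0.44 ± 0.154 at day 7 (adjusted p = 0.00904) and 0.74 ± 0.184 for day 7 relative to day 3 (adjusted p = 0.000375). The difference between days 7 and -1 was not called without the tumors above 10 CPM of Krt5 (-0.24, adjusted p = 0.179). An exon of Fst overlaps the antisense gene Gm47040.

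Fstl3, on chr10:79777274-79782630, encodes a second activin antagonist of the follistatin group. It had 46.1 to 72.2 CPM before CY (median 58.6), 22.9 to 27.9 CPM at day 3 (median 24.2) and 12.5 to 31.2 CPM at day 7 (median 20.7). No tumor after CY reached the lowest tumor before it. Fstl3 was lower by a log2 fold change of -1.27 ± 0.082 at day 3 (adjusted p = 2.99e-18) and -1.49 ± 0.0838 at day 7 (adjusted p = 6.66e-21). The step from day 3 to day 7 was small (-0.23 ± 0.0941, adjusted p = 0.0279), and the tumors of these days overlapped. Prss57 overlaps an exon of Fstl3 on the other strand.

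Acvr1, on chr2:58446438-58566828, is a type I receptor for BMPs. Its first 2 times were close, with 68.5 to 83 CPM before CY (median 77.4) and 70.1 to 82.7 CPM at day 3 (median 73.5), and fell to 37.1 to 51.9 CPM at day 7 (median 41.8). The day 7 tumors lay below all others, and days 3 and -1 overlapped. The log2 fold change was -0.03 ± 0.0374 at day 3 (adjusted p = 0.512), with a sign that changed under 4 other settings and without some single tumors, and -0.87 ± 0.0397 at day 7 (adjusted p = 3.16e-24).

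Acvr2a, on chr2:48814109-48903264, is a type II receptor that binds activins. It had 39.6 to 51.4 CPM before CY (median 45.1), 24.7 to 30.5 CPM at day 3 (median 26.9) and 25.3 to 39 CPM at day 7 (median 29.7). Tumors of both later times lay below all tumors of day -1. Acvr2a had a log2 fold change of -0.74 ± 0.0446 at day 3 (adjusted p = 2.45e-19) and -0.58 ± 0.0443 at day 7 (adjusted p = 4.39e-16). Day 7 was 0.16 ± 0.0519 above day 3 (adjusted p = 0.00485), but -0.02 (adjusted p = 0.747) without the tumors above 10 CPM of Krt5. An exon of Acvr2a overlaps Orc4 on the other strand.

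To set genes side by side, CPM was divided by exon length in kb. On this scale Inhba had the highest median of the 9 genes before CY (68.6 CPM per kb) and at day 3 (36.2), and at day 7 Fst stood at 12.8 and Inhba at 10.4. Fst and Inhba overlapped at day 7, with ranges of 8.93 to 26.6 and 9.41 to 14.5 CPM per kb. Inhbb stood at 2.18 CPM per kb before CY, 3.48 at day 3 and 6.94 at day 7. Bmp4 and Gdf15 held the 2 lowest medians at each time. Inhba made up a median of 96.8% of the summed Inhba and Inhbb level before CY (94.7% to 97.9%), 91.4% at day 3 (88.9% to 93.1%) and 59.8% at day 7 (57.9% to 73.5%).

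The ratio of Inhba to the sum of its antagonists Fst and Fstl3 on the same scale had a median of 1.61 before CY (0.89 to 2.23), 1.98 at day 3 (1.51 to 2.19) and 0.467 at day 7 (0.357 to 0.695). The ratio at day 7 was below that of every earlier tumor, and days 3 and -1 overlapped. At day 3 the ligand and both antagonists had fallen, and at day 7 the ligand had fallen further than Fst or Fstl3. These are RNA ratios and do not measure protein.

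**Figure D3:**
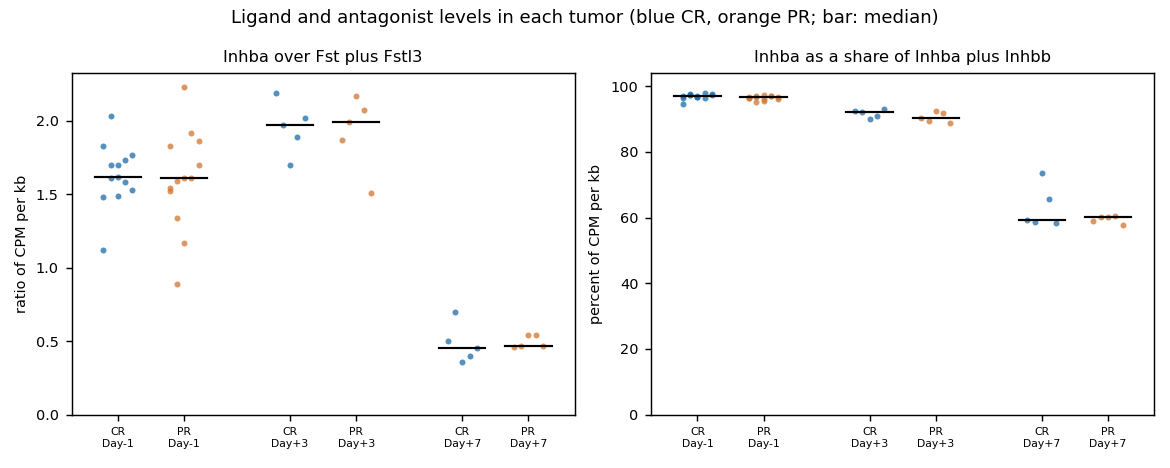
Left, the ratio of Inhba to Fst plus Fstl3, and right, Inhba as a percent of Inhba plus Inhbb, both from CPM per kb in each tumor (CR blue, PR orange, bar at the median). Both fall at day 7, to medians of 0.467 and 59.8%, and CR and PR tumors overlap at each time.

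Cell markers moved over the same times. The summed level of 6 macrophage genes was 2330 to 5630 CPM before CY, 8640 to 11300 CPM at day 3 and 12000 to 19700 CPM at day 7, and 6 of 6 were higher at each later time than at day -1. The sum of 6 genes of dividing cells was 1740 to 2350, 1020 to 1280 and 347 to 619 CPM. At day 3, 2 of the 6 were higher and 3 lower than at day -1, with Mki67 at a mean of 458 CPM at day 3 and 1310 CPM at day -1, and at day 7, 6 of 6 were lower. The 6 mesothelial markers summed to 287 to 610, 300 to 492 and 51.5 to 132 CPM, most of it Msln, and Muc16 was at 0 in every tumor of day 7. The 6 fibroblast genes summed to 19300 to 32000, 28200 to 33200 and 10400 to 31700 CPM, most of it Col3a1. At day 3, 5 of these 6 were higher and 0 lower, and at day 7, 3 were higher (Dcn, Lum and Fap) and 3 lower (Col1a1, Col1a2 and Col3a1). Inhba, Fstl3 and Acvr1 were lowest at day 7 together with the mesothelial and dividing-cell sums. By median, 2 other sums were also lowest at day 7. The fibroblast sum had medians of 23300, 30500 and 13800 CPM at days -1, 3 and 7, and the endothelial sum 158, 133 and 126 CPM. Inhbb and Bmp4 were highest at day 7 together with the macrophage sum. At day 3 some pairs of courses differed and others ran together. Inhba and Fstl3 had then fallen (log2 fold change -0.93 and -1.27), with mesothelial medians of 386 CPM before CY and 354 CPM at day 3. Acvr1 was not called at day 3, with dividing-cell medians of 2070 and 1200 CPM. Bmp4 was not called at day 3 either, when the macrophage sum was already higher. Other pairs matched at day 3. The dividing-cell sum had fallen, as Inhba and Fstl3 had, and the mesothelial sum stayed close, as Acvr1 did. Inhbb was higher at day 3 (log2 fold change 0.59), as the macrophage sum was. Other lists also stood highest at day 7: T cell genes (6 of 6 higher than at day -1), neutrophil genes (3 of 3 tested) and genes of glycolysis and hypoxia (8 of 9). So did fat cell genes (4 of 5 higher), skeletal muscle genes (4 of 5) and integrated stress response genes (6 of 9). The keratinocyte sum also had its highest median at day 7, with 0 of 5 genes called. Among the neutrophil genes, Cxcr1 did not pass the filter on low counts. Ly6g had 0 to 1 counts before CY, 0 to 4 at day 3 and 40 to 311 at day 7. It thus passed the filter through its day 7 level alone. The part of these cell types and responses in the member levels was not tested.

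Other genes of the pathway were listed by role. Besides the 9 members, 75 were listed, 64 were in the table and 45 passed the filter on low counts. At day 3, 25 were higher and 13 lower than at day -1 (84.4% called), and at day 7, 20 were higher and 13 lower (73.3% called). The share called among all genes was given above, 37.9% and 39.6% at day 3 and 43% and 42.8% at day 7. The share of the pathway called was thus a little above that of all genes at day 3 and below it at day 7.

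Of 6 type I receptors, Acvr1 included, 2 were higher and 2 lower at day 3 and 2 higher and 3 lower at day 7. Acvrl1, an endothelial receptor for BMPs, was 2.73 higher at day 7 on the log2 scale (adjusted p = 6.22e-32), and Acvr1b, the main type I receptor for activins, was 1.32 higher (adjusted p = 4.35e-30). Bmpr1a, a BMP receptor, had a log2 fold change of -1.46 (adjusted p = 4.35e-27). Acvr1 and Bmpr1a thus fell while Acvr1b and Acvrl1 rose. Of 5 endothelial markers, 3 were higher and 2 lower at day 7 than at day -1. Their sum had medians of 158 CPM before CY and 126 CPM at day 7. Which cells held the Acvrl1 RNA was not tested. Of 4 type II receptors, Acvr2a included, 3 were lower at each time and 0 higher. Bmpr2 changed by -1.01 at day 7 and Acvr2b, the closest relative of Acvr2a, by -1.64 (adjusted p = 7.74e-24 and 1.01e-12).

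Among 13 secreted antagonists tested, Fst and Fstl3 included, 8 were higher and 5 lower at day 3, and 6 were higher and 4 lower at day 7. Fst and Fstl3 were among the lower ones at both times. Nbl1 was 1.40 higher at day 3 and 1.07 higher at day 7 on the log2 scale, and Chrd, which encodes chordin, was 1.11 higher at day 3 (adjusted p = 1.68e-25, 1.53e-21 and 9.8e-14). Kcp, related to chordin, was 3.56 higher at day 7 (adjusted p = 1.5e-26). Crim1, which binds BMPs in the cell that makes them, was lower at both times, by log2 fold changes of -1.33 and -0.67.

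Of 7 tested genes that BMPs induce, 4 were higher and 0 lower at day 3, and 6 higher and 1 lower at day 7. Of all genes tested, 37.9% were higher and 39.6% lower at day 3, and 43% and 42.8% at day 7. Whether the 7 genes differed from this background was not tested. The Id genes encode inhibitors of helix-loop-helix factors. Id3 was 1.02 higher at day 3 and 1.89 higher at day 7 on the log2 scale, and Id2 was 2.33 higher at day 7 (adjusted p = 3.94e-10, 2.72e-19 and 2.68e-26). Id1 was 0.55 higher at day 3 (adjusted p = 1.03e-05), and its difference of 0.19 at day 7 had an adjusted p of 0.0991. Hey1, a target shared with Notch, went the other way at day 7 (-1.92, adjusted p = 8.7e-14). Id2 and Id3 are also expressed by leukocytes, whose macrophage markers moved as given above, and their part in these levels was not tested.

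Among the other activin-class ligands, Inha, which pairs with the beta subunits to form inhibins, was lower at day 7 (-0.64, adjusted p = 2.99e-09). Gdf11, a ligand of the same receptors, was 0.62 higher at day 3 and then lower than before CY at day 7 (-1.24, adjusted p = 1.31e-08 and 6.16e-16). Of 9 BMP-class ligands tested, Bmp2 and Bmp4 included, 6 were higher and 1 lower at day 3. At day 7, 5 were higher and 1 lower. Gdf5 was 2.29 higher at day 3 (adjusted p = 1.51e-12), with a mean of 1.81 CPM at day 3 and 0.365 CPM at day -1. Its counts were low, at 0 to 9 per tumor before CY and 23 to 43 at day 3. At day 7 Gdf9 was 1.96 higher (adjusted p = 9.51e-16) and Bmp5 was lower (-2.11, adjusted p = 8.68e-09). Gfral, the receptor of Gdf15, had 0 counts in every tumor before CY and at day 7 and was not tested.

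**Figure D4:**
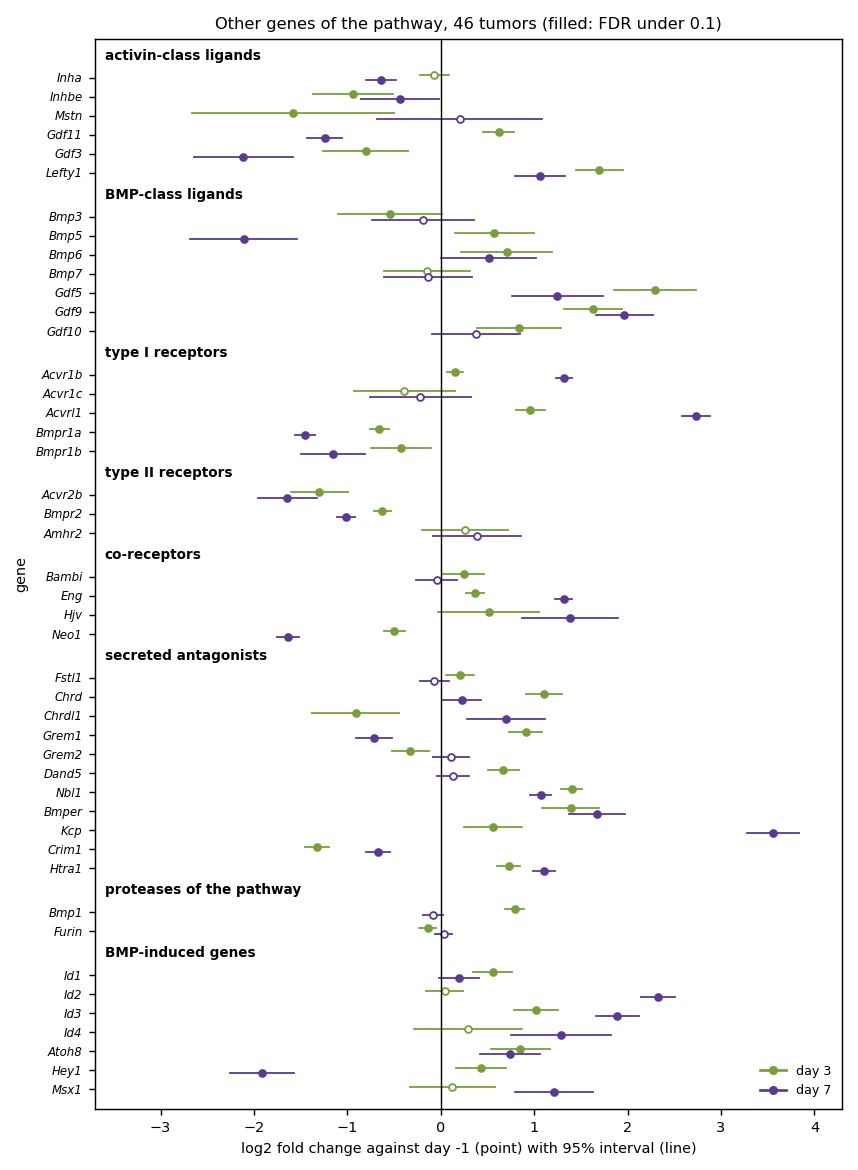
Log2 fold changes against day -1 with 95% intervals from the SE for the tested genes of the pathway besides the members, by role, at day 3 (green) and day 7 (purple), filled where the FDR was under 0.1. Kcp reaches 3.56 and Acvrl1 2.73 at day 7, and the type II receptors Acvr2b and Bmpr2 lie left of 0 at both times.

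The comparison of CR with PR asked whether the genes differed between tumors of mice with another response. No member was called at any time: 0 of 7 tested before CY, where 0.00928% of 10777 genes were called, and 0 of 9 at day 3 and at day 7, where 0% of 11839 and 0% of 11727 genes were called. Bmp4 and Gdf15 did not pass the filter on low counts before CY. At an unadjusted p under 0.05 the members numbered 0, 1 and 0, and over all genes 1885, 256 and 333. DESeq2 and limma-voom also called 0 members at each time. Over all genes the count before CY depended on the tool and on which tumor was left out. DESeq2 called 232 genes higher and 211 lower, and limma-voom 714 and 474. With edgeR, leaving out PR Day-1 replicate 7 gave the highest counts, 551 and 323. Leaving out CR Day-1 replicate 3, PR Day-1 replicate 6 or PR Day-1 replicate 9 also raised both counts. CR and PR overlapped for every member at every time, and the share of all genes that overlapped was not counted.

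The differences of Inhbb were below 0 at each time. Before CY it had 6.54 to 15.2 CPM in CR tumors (median 8.7) and 8.28 to 13.9 CPM in PR tumors (median 9.79), with a log2 fold change of -0.20 and a 95% interval of -0.42 to 0.02. At day 3 the CR tumors had 12.2, 13, 14.9, 15 and 11.8 CPM and the PR tumors 16.6, 19.6, 14.7, 14.1 and 15.9 CPM, with 3 of the 5 CR tumors below every PR tumor. Inhbb at day 3 was the member with an unadjusted p under 0.05, and its log2 fold change was -0.27 (interval -0.49 to -0.06, adjusted p = 1). At day 7 the value was -0.12 (interval -0.38 to 0.13).

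For the other ligands the intervals were wide. Gdf15 at day 7 had 0.703, 0.494, 0.209, 0.575 and 1.25 CPM in CR tumors, against 0.897, 1.18, 1.26, 0.964 and 1.02 CPM in PR tumors. Of the 5 CR tumors, 4 lay below every PR tumor, at 3 to 20 counts a tumor in CR and 14 to 20 in PR. The log2 fold change was -0.70 (interval -1.39 to -0.01) with an adjusted p of 0.967 (unadjusted 0.071). Bmp4 at day 3 differed by -0.50 (interval -1.01 to -0.002) with an unadjusted p of 0.0721, and at day 7 by 0.37 (interval -0.13 to 0.86). For Gdf15 at day 7 and Bmp4 at day 3 the normal interval from the SE lay below 0 while the test did not reach 0.05, so the intervals are read as a guide to size and the calls come from the test. Bmp2 before CY differed by -0.17 (interval -0.35 to 0.02).

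Inhba was close in both responses at each time. Its log2 fold change was 0.01 before CY (interval -0.07 to 0.08), -0.06 at day 3 (interval -0.22 to 0.09) and 0.11 at day 7 (interval -0.13 to 0.35). Before CY the intervals of Fstl3, Acvr1 and Acvr2a also lay within -0.10 and 0.16. Fst before CY had 58 to 151 CPM in CR tumors and 63.9 to 214 CPM in PR tumors, and its difference of -0.16 (interval -0.48 to 0.17) was 0.00 without PR replicate 12, the tumor at 214 CPM. At day 7, Fst had 52.1, 41, 122, 108 and 59 CPM in CR tumors and 57.2, 64.3, 58.4, 45.5 and 67 CPM in PR tumors, so that 2 CR tumors lay above all PR tumors and the difference was 0.39 (interval -0.15 to 0.92).

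**Figure D5:**
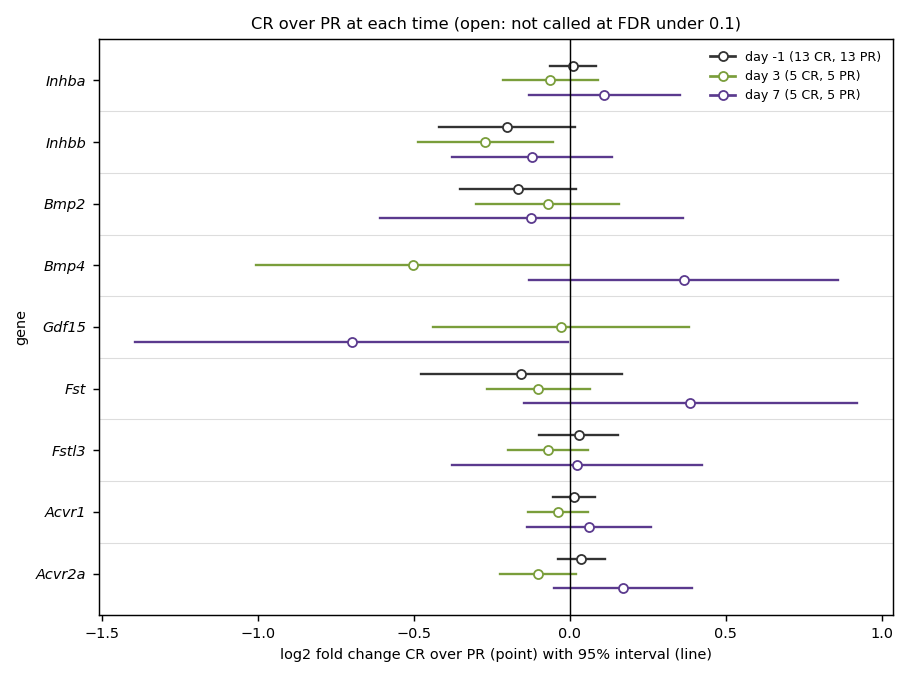
Log2 fold changes of CR over PR for the 9 genes with 95% intervals from the SE, before CY (black), at day 3 (green) and at day 7 (purple), all open because none had an FDR under 0.1. The narrowest intervals are those of Acvr1, Inhba and Acvr2a before CY, and Gdf15 at day 7 has the widest, from -1.39 to -0.01.

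The change over time was also compared between CR and PR. As an interaction, 0 of 9 members were called at day 3 (0% of 13194 genes) and 0 of 9 at day 7 (0.00758%). Within CR tumors Bmp4 was lower at day 3 than before CY (-0.55 ± 0.279, adjusted p = 0.0791), and within PR tumors it was not called (0.31 ± 0.267, adjusted p = 0.303). The difference of these changes was -0.86 ± 0.386 (adjusted p = 1, unadjusted p = 0.0289). Gdf15 changed by 2.60 ± 0.245 in CR and 1.99 ± 0.235 in PR at day 3, a difference of 0.61 ± 0.358 (adjusted p = 1). Its mean was 0.475 CPM in CR and 0.751 CPM in PR before CY, and 2.91 CPM in CR and 2.98 CPM in PR at day 3. Before CY no CR tumor was above the PR median, at 2 to 14 counts a tumor. Gdf15 did not pass the filter for a test of CR against PR then. The share of all genes with this pattern was not counted. Fst changed by -0.17 ± 0.215 in CR and -0.71 ± 0.222 in PR at day 7, a difference of 0.54 ± 0.303 (adjusted p = 0.484).

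Among the 26 tumors before CY, the 21 pairs of the 7 members that passed the filter were compared by log2 CPM. Only Bmp2 and Fst were related at an adjusted p under 0.05, with Pearson's r = 0.578 (permutation p = 0.00157, adjusted 0.033) and Spearman's rho = 0.648 (permutation p = 0.00057, adjusted 0.012). Without the 2 tumors farthest from the median of Bmp2, r was 0.544. It was 0.543 within CR, 0.613 within PR, and 0.68 after skin and muscle scores were taken out. Inhba and its antagonist Fst had r = -0.16 (permutation p = 0.44, adjusted 0.616), and Inhba and Inhbb r = -0.242 (permutation p = 0.234, adjusted 0.46).

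The genes most like each member were sought over 13193 genes, as Pearson's r of log2 CPM over 46 tumors after the 6 group means were taken out. For Inhba they were Lats1 (0.752), Bmpr2 (0.743) and Bmpr1a (0.714). Bmpr2 and Bmpr1a are BMP receptors, and whether members of the pathway were more alike than other genes was not tested. Those of Fst were Il1rl1 (0.809), Ifitm3 (0.8) and Isg20 (0.793), and those of Fstl3 were Fosl1 (0.822), Ccn1 (0.783) and Ckap4 (0.769). For Acvr1 they were Gnao1 (0.781), Gpc4 (0.772) and Dab2ip (0.767). The values of the other members were lower: Inhbb with Ckmt1 (0.658), Evpl (0.63) and Esrp2 (0.629), Acvr2a with Nol8 (0.643), Fgf7 (0.617) and Gm43039 (0.602), and Gdf15 with Men1 (0.609), Aacs (0.594) and Mvk (0.588). Bmp4 was most like Grm6 (0.606), Il31ra (0.579) and Aqp9 (0.564), and Bmp2 most like Fbxw4 (0.593), Loxl3 (0.566) and Gabrb1 (0.557). The tumors share depth and cell makeup, and these values are a description. CR replicate 4 of day 7 was the highest day 7 tumor for Inhba, Bmp4, Fstl3, Acvr1 and Acvr2a. The values were not computed again without it.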

How the data were processed

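The authors quantified reads by kallisto (build GRCm38.p6), and the deposited values are whole-number counts per gene symbol without normalization (the kallisto version, the annotation and the strand of the library are not given in the sources used here). Of 46012 entries, the last, with values for part of the tumors only, was left out, and genes sorted after it were not analysed here, so library totals are totals over the genes covered. Groups came from the labels. In R 4.3.3, edgeR 4.0.16 (TMM, filterByExpr, glmQLFit in its older form, glmQLFTest) tested CR against PR within each time and times within a model of 6 groups over 46 tumors, with equal weight to CR and PR. P-values were adjusted over all genes tested (Benjamini-Hochberg, FDR under 0.1, the threshold of the study). Log2 CPM used a prior count of 2, SE came from unshrunk coefficients, and 95% intervals are normal intervals from the SE. P-values measure the spread between tumors of different mice. Among 1035 pairs of libraries 0 had the same counts, and chi-square over its degrees of freedom was at least 3.79, so none was counted as a copy. CPM per kb used the union of exons of GENCODE M21. Permutation tests drew 100000 resamples, two-sided. All 9 members were named, and for each member the 3 genes of highest r. Of the pathway lists, only some genes that passed the FDR were named, not always those of lowest p. Gfral was named without a test. Co-receptors and proteases of the pathway were counted but not named. Members and lists were chosen with earlier results of these data known. The 2-fold rule, the levels per kb and the relations to cell type lists were chosen after seeing the data. Alternatives were DESeq2 1.42.0, voom of limma 3.58.1 with quality weights, DESeq2 size factors, 2 other filters, an FDR of 0.05, thinned counts, skin and muscle covariates, tumors above 10 CPM of Krt5 left out, 1 model for all tumors, and each tumor left out in turn. The test was also run on simulated data for some comparisons, none of them an interaction, and no support is drawn from that run. Promoter windows came from RefSeq; Fst and Bmp2 had no entry.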

Additional observations from a re-analysis of the deposited data

Results flagged for a closer look

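Of 36 sets of 5 tumors (9 genes in the 4 groups after CY), 2 had 1 tumor far from the rest by Dixon's test at the 95% level, which chance gives in about 1 in 20. Bmp2 reached 24.5 CPM in CR replicate 3 at day 7, where the next tumor had 13.9 CPM and the lowest 11.2 CPM. Gdf15 was at 2.01 CPM in CR replicate 4 at day 3, where the next had 2.99 CPM and the highest 3.29 CPM. The groups of 13 were not tested this way.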

How the results depend on the processing

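No paired analysis was possible because replicate numbers only name tumors in sample order and the labels give no pairing. The counts of members called stayed within 1.5 times under all settings run. Over all genes, CR against PR before CY gave 0 higher and 1 lower, against 232 and 211 with DESeq2, 714 and 474 with limma-voom, and 6 and 2 with all 46 tumors in 1 model, while 0 were lower without the tumors above 10 CPM of Krt5. Leaving out 1 tumor gave 0 to 551 higher and 1 to 323 lower, both highest without PR Day-1 replicate 7. At day 3, where 0 were called, DESeq2 gave 3 higher, and leaving out 1 tumor 0 to 1 higher. At day 7, also 0, DESeq2 gave 3 higher and 2 lower, limma-voom 1 lower, and leaving out 1 tumor 0 to 1 in each direction. For the interaction at day 3 DESeq2 gave 3 lower, against 0. At day 7 it gave 28 higher and 12 lower, against 1 and 0, the covariates gave 5 lower, and limma-voom, an FDR of 0.05 and the set without Krt5-high tumors gave 0 higher. Leaving out 1 tumor gave 0 to 61 higher and 0 to 33 lower, the highest without CR Day+7 replicate 5. The cause of these differences was not tested.

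Among the members' log2 fold changes, small values changed sign. For CR against PR before CY, Inhba (0.01) was -0.0093 and Acvr1 (0.01) -0.0083 without Krt5-high tumors, and without 1 tumor Inhba ran from -5e-04 to 0.0323 and Fst (-0.16) from -0.2489 to 4e-04. At day 3, Gdf15 (-0.03) was 0.0133 with limma-voom, 0.1579 with thinned counts, 0.0529 with covariates and -0.1102 to 0.1492 without 1 tumor. At day 7, Fstl3 (0.02) was -0.1572 with limma-voom, -0.0073 with thinned counts and -0.1759 to 0.159 without 1 tumor, and Acvr1 (0.06) was -0.0126 with limma-voom and -0.0259 to 0.1101 without 1 tumor. Without Krt5-high tumors Inhba (0.11) was -0.0257 and Bmp2 (-0.12) 0.1907, and without 1 tumor they ran from -0.0064 to 0.1713 and from -0.3529 to 0.1009. For day 3 against day -1, Acvr1 (-0.03) was 0.0052 with DESeq2 size factors, 0.0172 with no filter, 0.0055 with DESeq2, 0.0744 without Krt5-high tumors and -0.0424 to 0.0202 without 1 tumor. For day 7 against day 3, Acvr2a (0.16) was -0.0234 without Krt5-high tumors, where Bmp2 was -0.29 (adjusted p = 0.097). Counts of 2 to 14 per tumor limit Bmp4 and Gdf15 before CY.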

Other observations

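Before CY, the 7 members were also set against the summed levels of 10 cell type lists, 70 relations over 26 tumors that were chosen after seeing the data. In 2 of them both adjusted values were under 0.05. Inhbb was lower where the 6 macrophage genes were higher, with Pearson's r = -0.665 (permutation p = 0.00018, adjusted 0.0126) and Spearman's rho = -0.688 (permutation p = 0.00015, adjusted 0.00525). Without the 2 tumors farthest from the median of the macrophage sum r was -0.505, and it was -0.544 within CR and -0.725 within PR. Inhbb was also related to the fibroblast sum with adjusted values under 0.1 for both measures (Pearson's r = -0.56, permutation p = 0.00306, adjusted 0.0499, Spearman's rho = -0.554, permutation p = 0.00384, adjusted 0.0672). Without the 2 farthest tumors that r was -0.631, and it was -0.683 within CR and -0.402 within PR. Over time, both Inhbb and the macrophage sum were highest at day 7.

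Fst was lower where the 6 fibroblast genes were higher, with Pearson's r = -0.628 (permutation p = 0.00061, adjusted 0.0213) and Spearman's rho = -0.69 (permutation p = 0.00013, adjusted 0.00525). Without the 2 tumors farthest from the median of the fibroblast sum r was -0.588, and it was -0.617 within CR and -0.628 within PR. The summed levels share library totals with the genes, and the part of cell makeup was not tested. At the same level of 0.1, Inhbb with the mesothelial sum, Fstl3 with the endothelial and keratinocyte sums and Acvr2a with the T cell and neutrophil sums also passed, which makes 8 of 70 relations.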
